A study of Mus musculus with 96 samples.

Results

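Gonadal fat is the white fat pad that lies around the gonads of the mouse, and its transcriptome was compared between a high-fat diet (HFD) and a standard breeding diet (SBD). The 12 arrays were chosen by their titles, 6 for each diet, out of 96 arrays in the series. All mice were of the inbred strain DBA/2J, were 12 weeks old at dissection, had eaten their diet for 6 weeks and were fasted for 2 hours. Total RNA was amplified, labelled with biotin and hybridised to Illumina Mouse-6 BeadChips, on which each probe is carried by beads and its brightness measures the amount of 1 transcript. The labels call the arrays of a diet biological replicates 1 to 6 and do not say whether an animal kept its number in the other tissues. The composition of the diets, the sex of the mice, the day on which an animal was dissected and the chip of an array are not given in the sources used here. In a whole tissue sample, fewer cells of a type and less of an RNA per cell cannot be told apart.

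White adipocytes store triglyceride, make fatty acids from glucose when dietary carbohydrate is plentiful, release fatty acids during fasting and secrete hormones such as leptin and adiponectin. When calories come in excess, the gonadal pad of the mouse is known for enlarged adipocytes, for macrophages that gather around dying adipocytes and take up their lipid, and for growth of the collagen matrix around the cells. Enzymes of fatty acid synthesis are known to be held down in adipose tissue when the diet supplies fat in place of carbohydrate.

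The arrays differed in brightness within the high-fat group. The upper quartile of the intensities, divided by their median, was 1.98 to 2.35 on the 6 standard-diet arrays, 2.51 and 2.65 on high-fat replicates 1 and 2, and 1.55 to 1.72 on high-fat replicates 3 to 6. The diet means were 2.22 and 1.94 (two-sided exact permutation test, p = 0.225, n = 6 per diet), and the 4 dim arrays all belonged to 1 diet. Main results are therefore also given from a fit that includes this ratio, from a fit in which the 4 dim arrays have a coefficient of their own (the dim-array term), or from the bright arrays, that is, high-fat replicates 1 and 2 against the 6 standard-diet arrays. Standard-diet replicate 1 stood apart on muscle genes and standard-diet replicate 5 on the plasma protein gene Hpx, as given with those genes. Replicate 5 was also high on Itih4 (11.04), Cyp2f2 (10.30), Cyp7b1 (10.21) and Arg1 (9.39). The other standard-diet arrays had at most 9.40, 8.33, 8.37 and 7.67 on these genes. Standard-diet replicates 2, 3 and 4 were high on Greb1 (11.06, 9.64 and 11.32), Krt8 (11.80, 10.93 and 11.67) and Lcn2 (13.74, 12.58 and 13.58). Standard-diet replicates 1, 5 and 6 had at most 7.35, 10.09 and 11.50 on Greb1, Krt8 and Lcn2. The sources of these differences among the standard-diet arrays were not tested. The part of brightness in the differences between diets was not tested beyond these fits. Every array carried the labelled tissue's markers: Adipoq (adiponectin) had a log2 level of 15.04 to 15.90, and Wt1, a transcription factor of visceral fat and its mesothelium, one of 10.24 to 10.91. The median over all probes was 7.05, and since no detection p-values came with the intensities, levels near it were not separated from background. Levels of Eif2s3y, a gene of the Y chromosome, were 9.71 to 10.87, and those of Xist, which is expressed from the inactive X chromosome, 6.90 to 7.78.

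High-fat feeding was accompanied by higher RNA of macrophage, antigen-presentation, chemokine and collagen genes and by lower RNA of genes for fatty acid synthesis and xenobiotic metabolism. Of 18015 genes and unnamed probes tested with limma, 2189 (12.2%) passed an adjusted p of 0.05, with 1101 (6.11%) higher and 1088 (6.04%) lower on the high-fat diet. A fold change of at least 1.5 was reached by 675 of them, of which 398 were higher. The diets did not overlap on 1127 features (6.26%): on 548 (3.04%) all 6 high-fat arrays lay above all 6 standard-diet arrays, and on 579 (3.21%) all lay below. Among the 2189 called features 1037 (47.4%) had diets that did not overlap. With the brightness ratio as a covariate 1482 features passed (8.23%), of which 813 (4.51%) were higher and 669 (3.71%) lower. The dim-array term gave 158 (0.877%), with 107 (0.594%) higher and 51 (0.283%) lower. The bright arrays gave 61 (0.339%), with 37 (0.205%) higher and 24 (0.133%) lower. They are part of the 12 arrays, so passing on them is not separate evidence. Of the 146 genes named below that passed over all arrays, 134 also passed with the covariate, 51 with the dim-array term, 30 over the bright arrays and 37 with median scaling in place of quantile normalisation. Of the 2189 called features 29 had a standard-diet mean, and 65 a high-fat mean, below the filter on dim probes. Differences below are high-fat minus standard diet on the log2 scale, ± SE, over all 12 arrays unless the bright arrays are named. Gene lists are described by their counts against these shares and by their median difference, beside a median over all tested features of -0.021 on all arrays and of -0.015 on the bright arrays. Under median scaling the median over all features moved to -0.26 and 94 features passed, 34.0% of them higher against 50.3% otherwise, so directions are relative to the distribution of all probes.

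**Figure D1:**
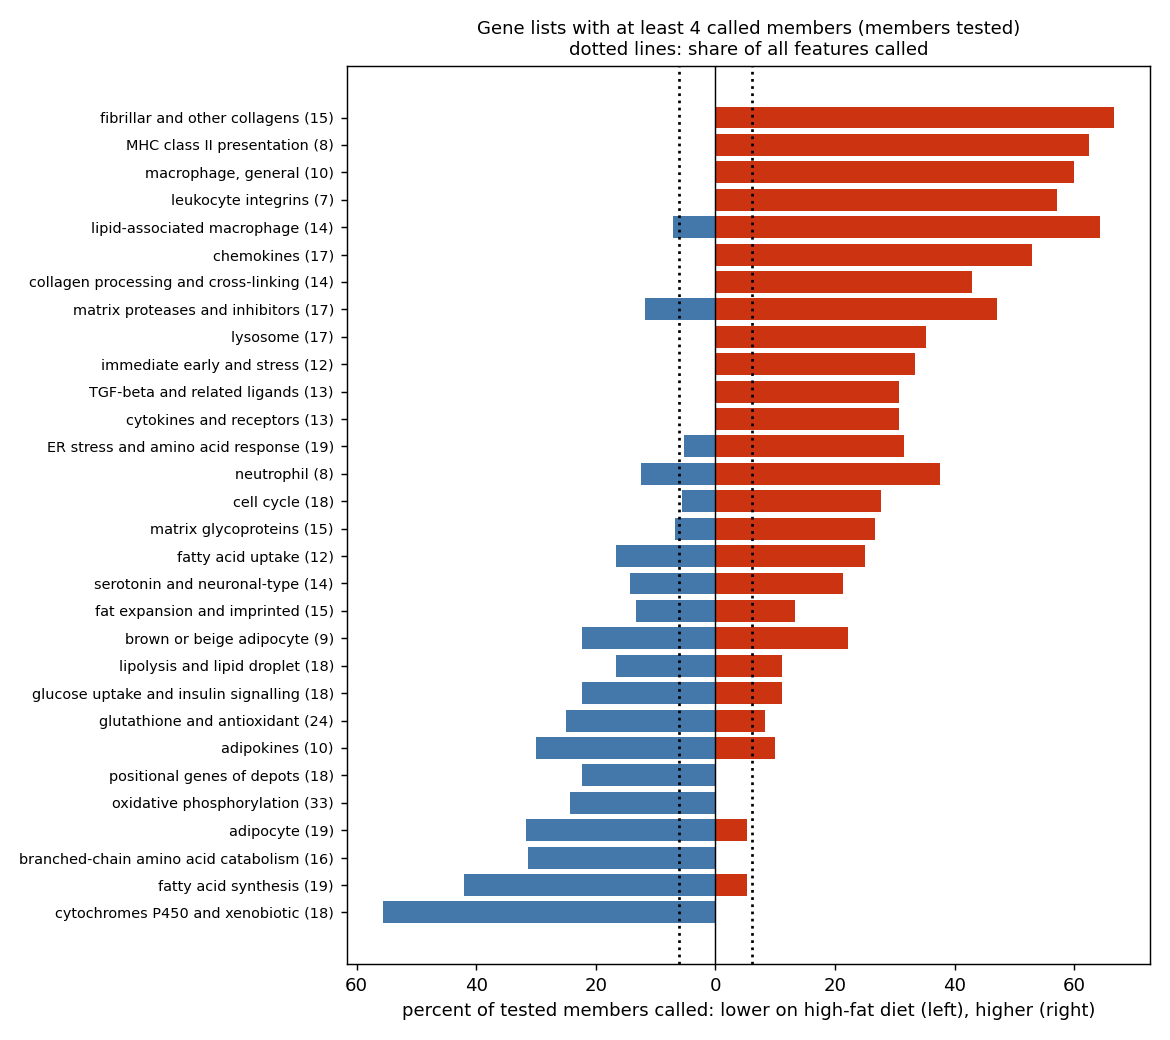
Percent of the tested members of each gene list that passed an adjusted p of 0.05, drawn to the right where higher on the high-fat diet and to the left where lower, for the 30 of 58 lists with at least 4 members called. Dotted lines mark the shares of all features, 6.11% higher and 6.04% lower. Collagens, with 10 of 15 members higher, and xenobiotic enzymes, with 10 of 18 lower, lie at the ends.

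The largest rise among named genes was that of Tph2, the neuronal tryptophan hydroxylase, which catalyses the rate-limiting step of serotonin synthesis. Its log2 levels, given throughout as the lowest, the median and the highest of the 6 arrays of a diet, were 7.82, 8.34 and 8.71 on the standard diet and 11.98, 12.87 and 14.02 on the high-fat diet. The lowest high-fat array was far above the highest standard-diet array. Its difference was 4.62 ± 0.32 (SE), a 24.7-fold rise (limma adjusted p = 1.66e-06), and over the bright arrays 3.72 ± 0.24 (adjusted p = 0.00049). Ubd, a ubiquitin-like protein induced by interferon and TNF, had levels of 10.01, 10.39 and 11.47 on the standard diet and 13.08, 14.06 and 14.44 on the high-fat diet, with no overlap between the diets. It rose 9.70-fold, by 3.28 ± 0.28 (adjusted p = 1.85e-05), and by 2.52 ± 0.34 over the bright arrays (adjusted p = 0.0205). Itgad, the integrin alpha D chain of macrophages, had levels of 6.71, 7.12 and 7.17 on the standard diet and 9.01, 10.18 and 10.67 on the high-fat diet. The standard-diet mean, 7.03, lay below the filter of 7.05, so Itgad was tested only through its high-fat values, and the dim high-fat arrays were above the bright ones. The measured difference, against standard-diet values not told from background, was 2.90 ± 0.27 on all arrays (adjusted p = 2.37e-05) and 1.99 ± 0.14 on the bright arrays (adjusted p = 0.00049). Mrc2, an endocytic collagen receptor also called Endo180, had levels of 10.63, 10.95 and 11.23 on the standard diet and 12.70, 12.90 and 13.22 on the high-fat diet. Its bright and dim high-fat arrays lay together, all above the standard-diet arrays. It rose 3.91-fold, by 1.97 ± 0.11 on all arrays (adjusted p = 1.6e-07) and by 1.94 ± 0.14 on the bright ones. This rests on the brightest of 3 Mrc2 probes; the others, at mean levels of 7.76 and 7.67, differed by 0.18 and 0.24 (adjusted p = 0.182 and 0.110).

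Other large rises were those of Slc5a7, the choline transporter of cholinergic neurons, with 1.79 ± 0.16, of Nup210, a nuclear pore membrane protein, with 1.74 ± 0.16, and of Ct55, a cancer/testis antigen, with 1.71 ± 0.13. Ptx3, a soluble pattern recognition protein made by inflamed stromal and myeloid cells, rose by 1.80 ± 0.23, and Rgs1, a regulator of chemokine receptor signalling in leukocytes, by 1.63 ± 0.21. The diets did not overlap on any of these 5 genes, and Slc5a7, Nup210, Ct55 and Ptx3 also passed over the bright arrays, with adjusted p of 0.0233, 0.0233, 0.00049 and 0.0296. On the bright arrays Unc79, a subunit of a sodium leak channel complex, and Bpifb6, a member of the lipid-binding BPI fold family, were among the 10 higher genes of smallest p, with differences of 1.46 ± 0.19 and 1.32 ± 0.12. Their differences over all arrays were 1.47 ± 0.13 and 1.13 ± 0.14, and the diets did not overlap.

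**Figure D2:**
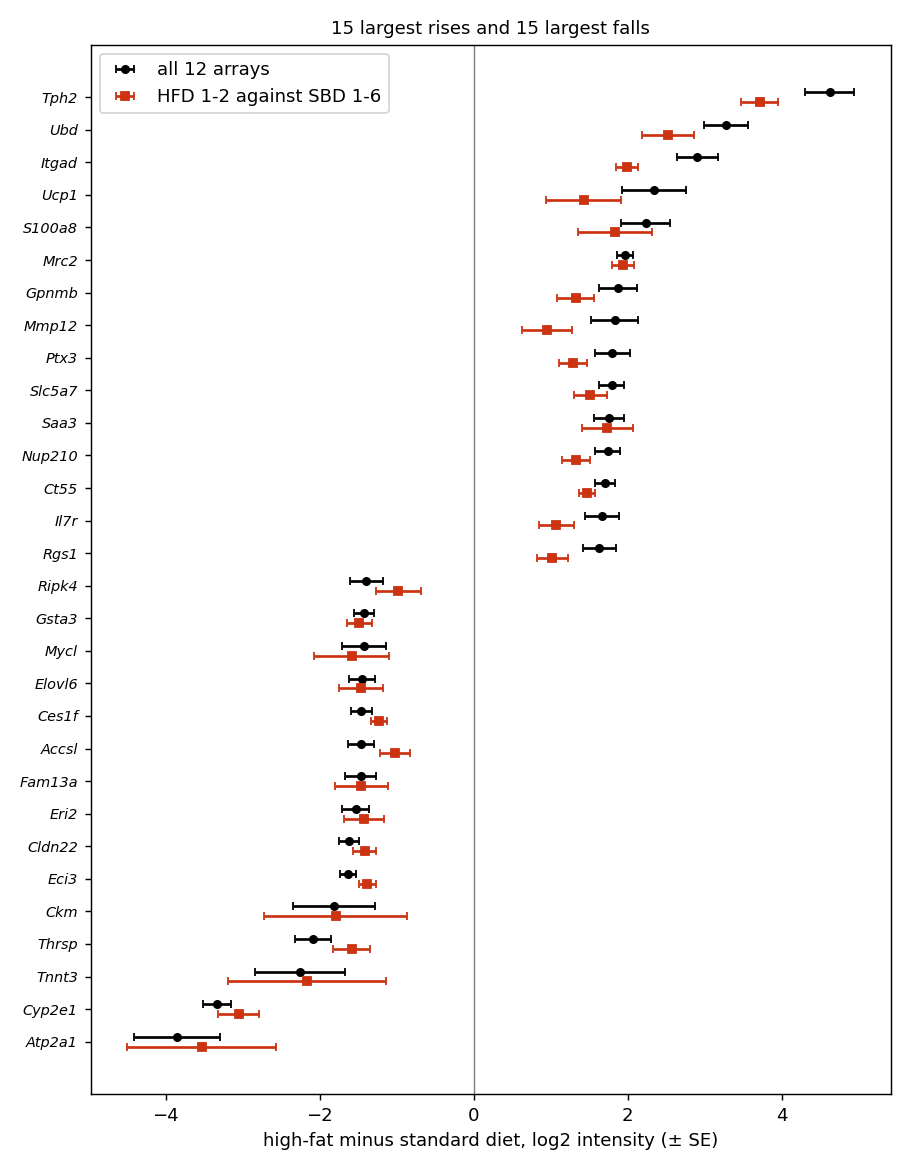
Difference between high-fat and standard diet in log2 intensity, with SE, for the 15 called genes with a current symbol that rose most and the 15 that fell most. Black circles stand for all 12 arrays and red squares for high-fat replicates 1 and 2 against the 6 standard-diet arrays. Tph2 and Cyp2e1 lie near the ends in both, at 4.62 and -3.33 over all arrays.

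The bases before the transcription start are shown for the 2 largest rises, Tph2 and Ubd, and for the xenobiotic enzyme Cyp2e1 and the lipogenic regulator Thrsp, the 2 largest falls outside the muscle markers described further on. They run 5′ to 3′ over 150 bases that end at the base before the start, from RefSeq on GRCm38.p6, at chr10:115185023-115185172 (- strand) for Tph2, chr17:37193742-37193891 (+ strand) for Ubd, chr7:140763669-140763818 (+ strand) for Cyp2e1 and chr7:97417551-97417700 (- strand) for Thrsp. Capitals mark matches, on either strand, to TATAAA (the TATA box), CCAAT (the CCAAT box, written ATTGG when it lies on the other strand) and a simplified NF-kappaB pattern. That pattern was set here as GGG, any 2 bases, TT, any base and CC, and is not the full consensus.
Tph2: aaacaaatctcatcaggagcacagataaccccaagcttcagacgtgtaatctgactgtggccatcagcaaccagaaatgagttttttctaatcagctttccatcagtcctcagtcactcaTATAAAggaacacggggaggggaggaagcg
Ubd: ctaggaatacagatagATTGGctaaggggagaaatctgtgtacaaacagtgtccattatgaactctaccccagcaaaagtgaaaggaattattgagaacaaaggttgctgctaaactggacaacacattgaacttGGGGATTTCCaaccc
Cyp2e1: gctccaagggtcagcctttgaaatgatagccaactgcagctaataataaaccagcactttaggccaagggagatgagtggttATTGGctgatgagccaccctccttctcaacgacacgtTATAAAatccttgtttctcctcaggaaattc
Thrsp: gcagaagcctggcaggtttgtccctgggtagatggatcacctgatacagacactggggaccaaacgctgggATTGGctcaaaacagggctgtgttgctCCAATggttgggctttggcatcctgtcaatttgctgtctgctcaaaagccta
Tph2 and Cyp2e1 held a TATAAA that begins at -30 and -31, a match that 7.57% of all 32851 promoters of the table hold in the same window. Ubd held a match to the simplified NF-kappaB pattern beginning at -15, which 2.63% of promoters hold, and a CCAAT on the other strand at -134. Thrsp held CCAAT at -79 and -52 and Cyp2e1 at -68, a motif present in 24.5% of promoters. A match describes these letters and does not show that a factor was bound.

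Macrophage genes were higher on the high-fat diet. Of 10 tested general macrophage markers 6 rose and none fell, where 6.11% of all features were higher, with a median difference of 0.71. Laptm5, a lysosomal membrane protein of blood cells, had levels of 13.73, 13.87 and 14.13 on the standard diet and 14.53, 14.63 and 15.04 on the high-fat diet. Its diets did not overlap, and the rise was 0.78 ± 0.10 (adjusted p = 0.000309). Fcgr3, a low-affinity receptor for immunoglobulin G, rose by 0.65 ± 0.11 without overlap. Mpeg1, the pore-forming perforin-2, rose by 1.60 ± 0.29, Tyrobp, a signalling adaptor of myeloid receptors, by 1.10 ± 0.25, and Adgre1, an adhesion receptor that marks mature mouse macrophages, by 0.93 ± 0.25, each with overlap of at least 1 array. Under median scaling the median was 0.32 and no marker passed, with 5 higher at an unadjusted p under 0.05. With the brightness covariate 6 of the 10 markers passed, and with the dim-array term 1, Laptm5 (adjusted p = 0.033). The median over the bright arrays was 0.35, and Adgre1 differed there by 0.25 ± 0.29 (adjusted p = 0.782).

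Markers of lipid-associated macrophages, the foamy cells that ring dying adipocytes, held 9 rises and 1 fall among 14 members, with a median of 0.76 on all arrays and 0.51 on the bright ones. Under median scaling it was 0.41, with 4 members higher. Itgad, 1 of the 9 rises, was tested only through its high-fat values, so its rise gives no support to these counts. Itgax, the CD11c integrin chain of these cells, had levels of 7.39, 7.93 and 8.12 on the standard diet and 8.68, 9.13 and 9.52 on the high-fat diet. The diets did not overlap, and the rise was 1.31 ± 0.16 (adjusted p = 0.0002). Trem2, the lipid receptor that defines the cells, had levels of 9.82, 10.26 and 10.97 on the standard diet and 11.15, 11.74 and 12.13 on the high-fat diet, which did not overlap either. It rose by 1.38 ± 0.21 (adjusted p = 0.000835), and by 1.04 ± 0.28 over the bright arrays, where it did not pass (adjusted p = 0.168). Gpnmb, a transmembrane glycoprotein of lipid-laden phagocytes, rose by 1.88 ± 0.25, Mmp12, the macrophage elastase, by 1.83 ± 0.31, Lipa, the lysosomal acid lipase, by 1.12 ± 0.18, and Lgals3, galectin-3, by 0.67 ± 0.12. Ctsk, a lysosomal cathepsin, rose by 0.85 ± 0.12. On these 5 genes the diets were fully apart. Apoe, the apolipoprotein made by macrophages and adipocytes, fell by 0.50 ± 0.12, with levels of 14.38, 14.67 and 14.81 on the standard diet and 13.88, 14.03 and 14.54 on the high-fat diet. Its 2 bright high-fat arrays, at 14.54 and 14.47, lay within the standard-diet range. With the brightness covariate 9 of these markers were higher, and with the dim-array term 2, Itgad and Itgax (adjusted p = 0.000102 and 0.0318). The same limit holds for Itgad in these fits.

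Of 7 integrins of leukocytes 4 rose and none fell, with a median of 0.42 that was -0.0043 under median scaling, where 2 passed. Itgad, 1 of the 4, was tested only through its high-fat values, so its rise gives no support to these counts. Besides Itgad and Itgax, Itgb2, their common beta chain, rose by 0.72 ± 0.14 without overlap of the diets. Itgb1, the widely expressed beta-1 chain, rose by 0.42 ± 0.09, its sign turned to -0.00428 under median scaling, and a further probe for it had the other sign. Of 10 markers of resident macrophages 2 rose and 1 fell. Timd4, the phosphatidylserine receptor of long-lived resident macrophages, had levels of 8.86, 8.99 and 9.23 on the standard diet and 8.46, 8.53 and 8.64 on the high-fat diet, and all high-fat arrays lay below all standard-diet arrays. It fell by 0.46 ± 0.08 (adjusted p = 0.00257). Mrc1, the mannose receptor, rose by 0.44 ± 0.11, with -0.00800 under median scaling, and the monocyte attractant Ccl8 by 0.89 ± 0.23.

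Of 7 markers of T and NK cells 2 rose. Il7r, the interleukin-7 receptor of T cells and innate lymphoid cells, had levels of 7.55, 8.19 and 8.62 on the standard diet and 9.10, 9.93 and 10.28 on the high-fat diet, without overlap. It rose by 1.67 ± 0.22 (adjusted p = 0.000361). Nkg7, a granule protein of cytotoxic cells, rose by 0.53 ± 0.13 with overlap. Of 8 neutrophil markers 3 rose and 1 fell. S100a8, a calcium-binding alarmin of neutrophils and monocytes, had levels of 8.98, 10.43 and 11.05 on the standard diet and 11.82, 12.41 and 13.30 on the high-fat diet. All 6 high-fat arrays were higher, and the rise was 2.24 ± 0.32 (adjusted p = 0.00055). Its partner S100a9 differed by 0.16 ± 0.26 (adjusted p = 0.711). The granule genes Ltf and Mpo rose by 0.57 ± 0.10 and 0.45 ± 0.12 and Elane fell by 0.34 ± 0.10, all at levels of 6.73 to 8.08, near that of the median probe. The standard-diet means of Ltf and Mpo, 6.92 and 6.98, lay below the filter of 7.05, so both were tested only through their high-fat values and their rises give no support to a count of neutrophil markers.

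Genes of MHC class II antigen presentation rose in 5 of 8 members, with a median of 0.74 on all arrays and 0.82 on the bright ones. H2-Ab1, a beta chain of the class II molecule, had levels of 11.25, 12.16 and 12.59 on the standard diet and 13.02, 13.23 and 13.53 on the high-fat diet. No array of one diet lay within the range of the other, and the rise was 1.11 ± 0.19 (adjusted p = 0.00155). Ciita, the master activator of class II transcription, rose by 0.97 ± 0.15 (adjusted p = 0.00115), without overlap. H2-Eb1 rose by 0.71 ± 0.13, and the peptide-loading chains H2-DMb1 and H2-DMa rose by 0.84 ± 0.12 and 0.77 ± 0.15. Under median scaling the median was 0.29 and no member passed, with 1 higher at an unadjusted p under 0.05. With the brightness covariate 5 passed, and with the dim-array term 1, H2-DMb1 (adjusted p = 0.0405).

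Chemokines, which draw leukocytes into tissue, rose in 9 of 17 members and fell in none (median 0.46, and 0.39 on the bright arrays). Under median scaling the median was 0.046 and no member passed, with 2 higher and 1 lower at an unadjusted p under 0.05. Ccl2, the main attractant of monocytes, had levels of 8.07, 8.72 and 9.39 on the standard diet and 9.77, 10.15 and 10.48 on the high-fat diet. The diets were apart by a narrow gap, and the rise was 1.38 ± 0.18, 2.61-fold (adjusted p = 0.000383). Ccl7, its close relative, had levels of 10.88, 11.25 and 11.79 on the standard diet and 12.43, 12.65 and 13.06 on the high-fat diet, further apart. It rose by 1.40 ± 0.16 (adjusted p = 0.000175). Cxcl1, a neutrophil attractant, rose by 0.89 ± 0.14, Cxcl14, made by fat and epithelium, by 0.80 ± 0.17, and Ccl9 by 0.48 ± 0.09, with no overlap on any of the 3. With the covariate 6 chemokines passed and with the dim-array term 2, Ccl2 and Ccl7 (adjusted p = 0.0355 and 0.0232). Ccr7, the receptor that guides dendritic cells and lymphocytes to lymph nodes, was the 1 called of 7 chemokine receptors, at 0.56 ± 0.10. The share called over all features was 12.2%. Among 13 cytokines and their receptors 4 rose, including the TNF receptor Tnfrsf1b (0.71 ± 0.12) and the interleukin-1 receptor antagonist Il1rn (0.44 ± 0.10). Il1b itself differed by 0.29 ± 0.13 and did not pass (adjusted p = 0.14).

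Acute-phase proteins, best known as products of the liver in inflammation, rose in 2 of 10 members. Saa3, the serum amyloid A made in fat, had levels of 10.64, 11.66 and 11.98 on the standard diet and 13.03, 13.26 and 13.60 on the high-fat diet. No high-fat array came near the standard-diet range. It rose 3.39-fold, by 1.76 ± 0.20 (adjusted p = 0.000137), and by 1.74 ± 0.33 over the bright arrays (adjusted p = 0.0722). Orm2, an orosomucoid, rose by 1.47 ± 0.23. Hpx, the heme carrier hemopexin, was named after its values were seen. It was at 11.16 on standard-diet replicate 5, at 7.42 to 7.84 on the other standard-diet arrays and at 8.78 to 9.83 on the high-fat arrays, between that replicate and the rest. Its difference was 1.10 ± 0.51 (adjusted p = 0.168) and without standard-diet replicate 5 it was 1.69 (adjusted p = 8.88e-05), as 1 of 3 members then higher and 1 lower; 1970 features passed without that replicate. Lbp, chosen for its small p over the bright arrays and not a member of the list, carries bacterial lipopolysaccharide to its receptor. Its levels were 12.79, 12.92 and 13.01 on the standard diet and 13.38, 13.74 and 14.08 on the high-fat diet. Its 2 bright high-fat arrays, both at 14.08, were the highest, and the rise was 0.84 ± 0.12 on all arrays and 1.16 ± 0.09 on the bright ones (adjusted p = 0.00106). Of 7 complement genes Cfb, factor B of the alternative pathway, rose by 1.24 ± 0.18, and C2, its counterpart in the classical pathway, fell by 0.74 ± 0.12. Ubd was the 1 gene called among 14 of the interferon response, whose median was -0.027, where 12.2% of all features were called.

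Lysosomal genes rose in 6 of 17 members and fell in none (median 0.35, and 0.11 on the bright arrays), but under median scaling the median was -0.094 and no member passed, with 2 higher and 2 lower at an unadjusted p under 0.05. Ctsa, the protective protein cathepsin A, had levels of 12.25, 12.49 and 12.62 on the standard diet and 12.95, 13.17 and 13.39 on the high-fat diet. All high-fat arrays lay above, and it rose by 0.68 ± 0.09 on all arrays and by 0.80 ± 0.12 on the bright ones (adjusted p = 0.0354). Atp6v1a, a subunit of the proton pump that acidifies lysosomes, rose by 0.81 ± 0.19 on all arrays with overlap and differed by 0.24 ± 0.20 on the bright ones. Abcg1, a cholesterol exporter of macrophages, had levels of 11.17, 11.43 and 11.75 on the standard diet and 11.90, 12.53 and 12.80 on the high-fat diet. All high-fat arrays were higher, and the rise was 0.99 ± 0.16 (adjusted p = 0.00122).

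Among matrix genes, 10 of 15 tested collagens rose and none fell, with a median of 0.46 on all arrays and 0.48 on the bright ones. Col1a1, a chain of fibrillar collagen type I, had levels of 11.88, 12.08 and 12.36 on the standard diet and 12.86, 13.18 and 13.55 on the high-fat diet. The groups did not overlap and the bright high-fat arrays, at 13.21 and 13.55, were among the highest. It rose by 1.08 ± 0.12 on all arrays (adjusted p = 9.85e-05) and by 1.27 ± 0.14 on the bright ones (adjusted p = 0.00862). Col16a1, a fibril-associated collagen, rose by 1.04 ± 0.12, Col6a1, of the microfibrils around adipocytes, by 0.64 ± 0.11, and Col4a1, of the basement membrane, by 0.50 ± 0.10, each without overlap. Under median scaling the median was 0.16 and no collagen passed, with 3 higher at an unadjusted p under 0.05. With the covariate 9 collagens passed, and with the dim-array term 3.

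Of 14 genes of collagen processing and uptake 6 rose and none fell, Mrc2 among them (median 0.30, and -0.10 under median scaling with 1 called). Lox, which cross-links collagen and elastin, had levels of 12.62, 12.70 and 12.91 on the standard diet and 13.23, 13.39 and 13.67 on the high-fat diet. Every high-fat array exceeded every standard-diet array, and the rise was 0.68 ± 0.09 on all arrays and 0.65 ± 0.10 on the bright ones (adjusted p = 0.0401). Plod2, a lysyl hydroxylase that prepares cross-links, rose by 0.46 ± 0.10, while a further probe for it had the other sign. Of 17 matrix proteases and inhibitors 8 rose and 2 fell. Adam8, a membrane protease of leukocytes, rose by 1.02 ± 0.11 and Adam12, of activated fibroblasts, by 0.84 ± 0.19, though a further Adam12 probe had the other sign. Timp1, an inhibitor of metalloproteinases, rose by 1.34 ± 0.23, and the gelatinase Mmp9 fell by 0.56 ± 0.12. Among 15 matrix glycoproteins Sparc, a collagen-binding protein secreted by adipocytes and stroma, rose by 0.87 ± 0.20 and Lum, lumican, by 0.94 ± 0.22, both with overlap, while Thbs2, a thrombospondin that restrains vessel growth, fell by 0.60 ± 0.11 without overlap. Tgfb1, the main fibrogenic growth factor, rose by 0.47 ± 0.14 (adjusted p = 0.0406), and Ltbp2, of the family that binds latent TGF-beta, by 0.75 ± 0.14.

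**Figure D3:**
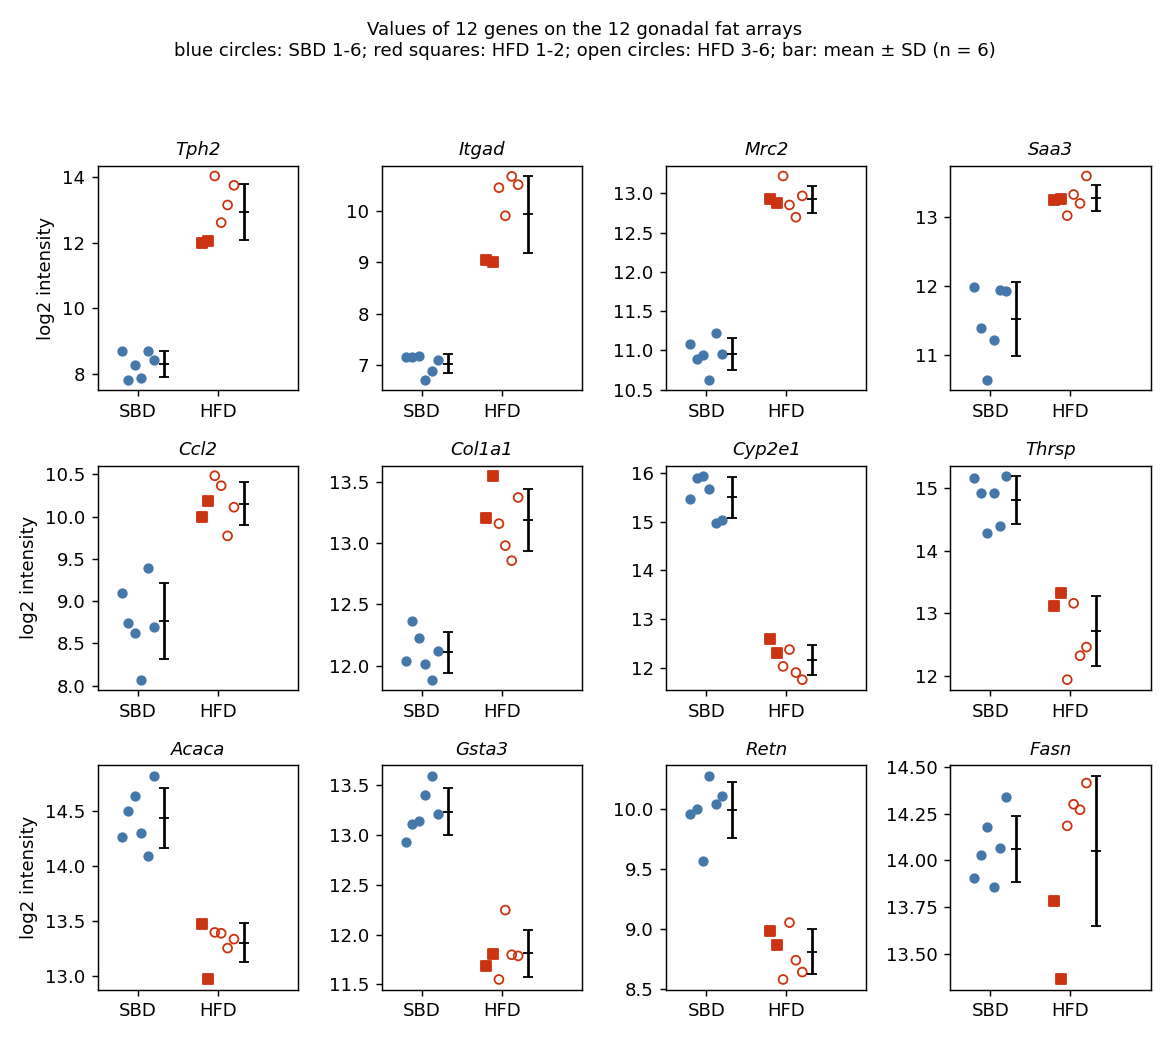
Log2 intensity of 12 genes on each gonadal fat array, with the mean ± SD of each diet (n = 6). Blue circles are standard-diet arrays, red squares high-fat replicates 1 and 2, open circles high-fat replicates 3 to 6. The diets are apart on 11 of the genes, and on Fasn the open circles lie at 14.18 to 14.41 and the squares at 13.36 and 13.78.

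Of 19 tested genes of fatty acid synthesis 8 fell and 1 rose, where 6.04% of all features were lower, with a median of -0.26 on all arrays and -0.29 on the bright ones. Acly, which makes cytosolic acetyl-CoA from citrate, had levels of 14.72, 15.27 and 15.71 on the standard diet and 13.94, 14.26 and 14.32 on the high-fat diet. The diets did not overlap, and Acly fell by 1.08 ± 0.13 (adjusted p = 0.000251). Acaca, the carboxylase that makes the malonyl-CoA for fatty acid synthesis, had levels of 14.09, 14.40 and 14.82 on the standard diet and 12.97, 13.36 and 13.47 on the high-fat diet, again apart. It fell by 1.13 ± 0.12 (adjusted p = 9.85e-05), and by 1.22 ± 0.20 over the bright arrays (adjusted p = 0.0449). Acacb, the mitochondrial form of the carboxylase, fell by 1.16 ± 0.17, and Elovl6, which lengthens palmitate, by 1.45 ± 0.17, both without overlap. Thrsp, a nuclear and cytosolic protein that promotes lipogenesis, had levels of 14.29, 14.93 and 15.19 on the standard diet and 11.94, 12.79 and 13.33 on the high-fat diet. This was the largest fall of the pathway, 4.26-fold, -2.09 ± 0.24 (adjusted p = 0.000128), and -1.58 ± 0.24 over the bright arrays (adjusted p = 0.0336). Mlxipl, the glucose-responsive transcription factor ChREBP, fell by 0.44 ± 0.10, and Acss2, which activates acetate, by 0.61 ± 0.17.

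Fasn and Scd1 did not pass. Fasn, the fatty acid synthase, had levels of 13.86, 14.05 and 14.34 on the standard diet and 13.36, 14.23 and 14.41 on the high-fat diet. The ranges overlapped, with the 2 bright high-fat arrays below all standard-diet arrays at 13.78 and 13.36. Its difference was -0.01 ± 0.16 on all arrays (adjusted p = 0.975), with a sign that turned under several settings, and -0.49 ± 0.15 on the bright arrays (adjusted p = 0.22). Scd1, the desaturase that makes oleate, had levels of 14.97, 15.25 and 15.56 on the standard diet and 15.11, 15.71 and 15.94 on the high-fat diet. The ranges overlapped here too, with high-fat replicates 3 to 6 above all standard-diet arrays. It differed by 0.34 ± 0.14 on all arrays (adjusted p = 0.12) and by -0.04 ± 0.15 on the bright ones. Elovl1, an elongase of long saturated chains, was the member that rose, by 0.40 ± 0.10, with -0.0515 under median scaling. With the dim-array term 5 members of the pathway were lower, among them Acaca, Acly and Thrsp (adjusted p = 0.00548, 0.0058 and 0.0219). Under median scaling 5 members passed, all lower, with a list median of -0.59.

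Of 13 genes of triglyceride assembly 3 fell. Mogat1, which acylates monoacylglycerol, had levels of 10.24, 10.41 and 10.60 on the standard diet and 8.78, 9.21 and 9.65 on the high-fat diet. The diets were far apart, with a fall of 1.21 ± 0.13 on all arrays (adjusted p = 6.5e-05) and of 1.08 ± 0.11 on the bright ones (adjusted p = 0.00565). Gpam and Gpat4, acyltransferases of the entry step, fell by 0.53 ± 0.10 and 0.45 ± 0.10. Of 18 genes of lipolysis and the lipid droplet 2 rose and 3 fell, where 6.11% of all features were higher and 6.04% lower. Cidea, a droplet-fusion protein of brown and white adipocytes, had levels of 11.74, 11.93 and 12.11 on the standard diet and 10.22, 10.75 and 11.25 on the high-fat diet. All high-fat arrays lay below, and Cidea fell by 1.16 ± 0.14 on all arrays and by 1.10 ± 0.13 on the bright ones (adjusted p = 0.00936). The lipases Lipe (hormone-sensitive lipase) and Pnpla2 (ATGL) fell by 0.58 ± 0.13 and 0.36 ± 0.09. The fall of Lipe rests on its brightest probe, at a mean level of 12.36. A further probe, at 12.01, differed by -0.07 (limma adjusted p = 0.706). Hilpda, an inhibitor of ATGL, had levels of 9.43, 9.71 and 10.73 on the standard diet and 10.92, 11.12 and 11.78 on the high-fat diet. It rose without overlap by 1.35 ± 0.21 (adjusted p = 0.00102), and the droplet coat protein Plin2 rose by 0.67 ± 0.15.

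Of 12 genes of fatty acid uptake 3 rose and 2 fell. Slc27a1, a fatty acid transporter, fell by 0.72 ± 0.13, and Gpihbp1, which carries lipoprotein lipase to the capillary wall, by 0.56 ± 0.14. Fabp5, a fatty acid binding protein, rose by 0.81 ± 0.20, Angptl4, an inhibitor of lipoprotein lipase, by 0.30 ± 0.08, and Vldlr, a lipoprotein receptor, by 0.44 ± 0.11, with -0.0101 under median scaling. Fatty acid oxidation held 3 falls among 20 members and no rise: Echs1, the enoyl-CoA hydratase, fell by 0.67 ± 0.11, Eci1, an isomerase for unsaturated chains, by 0.37 ± 0.10, and Hadha, of the trifunctional protein, by 0.29 ± 0.08. A further Hadha probe was called in the opposite direction. The share of all features that were lower was 6.04%, and 12.2% were called. Pdk4, which blocks pyruvate entry when fat is burned, had levels of 11.42, 11.86 and 12.40 on the standard diet and 11.59, 11.81 and 12.63 on the high-fat diet, which overlapped. Its difference was 0.11 ± 0.21 (adjusted p = 0.748), with the opposite sign, -0.14 ± 0.25, over the bright arrays. Eci3, a peroxisomal relative of the isomerase, had levels of 8.71, 8.93 and 9.04 on the standard diet and 7.02, 7.25 and 7.58 on the high-fat diet. It was among the largest falls, -1.63 ± 0.10 on all arrays (adjusted p = 8.32e-07) and -1.38 ± 0.11 on the bright ones (adjusted p = 0.00114).

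Of 33 tested subunits of oxidative phosphorylation 8 fell and none rose, with a median of -0.23 on all arrays and -0.26 on the bright ones. Cyc1, cytochrome c1, and Ndufb8, of complex I, fell by 0.42 ± 0.10 and 0.60 ± 0.14, without overlap of the diets. Pcx, pyruvate carboxylase, had levels of 12.03, 12.30 and 12.45 on the standard diet and 11.56, 11.67 and 11.90 on the high-fat diet. It fell without overlap by 0.57 ± 0.10, and Dlat, of the pyruvate dehydrogenase complex, by 0.54 ± 0.10, as the 2 called of 16 genes of the citric acid cycle and pyruvate entry. Over all features 12.2% were called and 6.04% were lower, and the median of this list was -0.054. Of 16 genes for the breakdown of branched-chain amino acids 5 fell. Ivd, of the leucine pathway, had levels of 13.23, 13.38 and 13.52 on the standard diet and 12.32, 12.68 and 12.85 on the high-fat diet, which were apart. It fell by 0.78 ± 0.10 (adjusted p = 0.000388), Auh, of the same pathway, by 0.81 ± 0.15, and Bckdha, of the rate-limiting dehydrogenase, by 0.45 ± 0.08. With the brightness covariate 4 oxidative phosphorylation genes and 3 of branched-chain breakdown passed. With the dim-array term no member of either list passed, and Ivd had an adjusted p of 0.051 and Cyc1 one of 0.213. Under median scaling no member of either list passed, with 27 and 10 lower at an unadjusted p under 0.05. The medians were then -0.61 and -0.55, beside -0.26 over all features.

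Of 19 adipocyte genes 6 fell and 1 rose. Adipoq had levels of 15.04, 15.72 and 15.81 on the standard diet and 15.59, 15.65 and 15.90 on the high-fat diet, which overlapped. Its difference was 0.11 ± 0.13 (adjusted p = 0.611). Lep, which encodes leptin, had levels of 14.83, 15.10 and 15.34 on the standard diet and 15.26, 15.63 and 15.70 on the high-fat diet, with overlap of 1 high-fat array. It rose by 0.48 ± 0.10, 1.39-fold (adjusted p = 0.00713), at intensities near the top of the scale. Retn, which encodes resistin, had levels of 9.57, 10.02 and 10.28 on the standard diet and 8.58, 8.81 and 9.06 on the high-fat diet. The diets were apart, and Retn fell 2.27-fold, a difference of -1.18 ± 0.12 (adjusted p = 4.27e-05) and of -1.07 ± 0.16 over the bright arrays (adjusted p = 0.0336). Agt, angiotensinogen, fell by 1.20 ± 0.21. Slc2a4, the insulin-responsive glucose transporter GLUT4, had levels of 10.37, 10.52 and 10.74 on the standard diet and 9.43, 9.82 and 10.04 on the high-fat diet, without overlap. It fell by 0.74 ± 0.11 (adjusted p = 0.000757). The insulin receptor substrate Irs1 fell by 0.98 ± 0.15 and the regulatory kinase subunit Pik3r1 by 0.68 ± 0.21, while Grb14, which restrains the insulin receptor, rose by 0.94 ± 0.16. These belong to 4 falls and 2 rises among 18 genes of glucose uptake and insulin signalling.

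Mest, an imprinted gene that follows fat expansion in mice, had levels of 12.84, 13.20 and 13.58 on the standard diet and 13.79, 14.25 and 14.36 on the high-fat diet. The 2 bright high-fat arrays, at 14.36 and 14.33, were above all standard-diet arrays, as were the dim ones. It rose by 1.00 ± 0.13 on all arrays (adjusted p = 0.000388) and by 1.17 ± 0.19 on the bright ones (adjusted p = 0.0374). Trp53inp2, a regulator of autophagy and adipogenesis, rose by 0.87 ± 0.12. Sfrp5, a Wnt antagonist, had levels of 11.26, 11.54 and 12.09 on the standard diet and 11.05, 11.31 and 12.18 on the high-fat diet, which overlapped. It differed by -0.18 ± 0.20 (adjusted p = 0.563) and by 0.27 ± 0.24 over the bright arrays. Hsd11b1, the enzyme that regenerates active glucocorticoid inside cells, had levels of 13.57, 13.89 and 14.35 on the standard diet and 12.70, 12.83 and 13.11 on the high-fat diet. It fell without overlap by 1.02 ± 0.12 on all arrays (adjusted p = 0.0002) and by 1.17 ± 0.18 on the bright ones (adjusted p = 0.0336). Hsd11b1 was the 1 called of 11 genes of the glucocorticoid response, where 12.2% of all features were called.

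Enzymes of xenobiotic metabolism held 10 falls and no rise among 18 members (median -0.42, and -0.30 on the bright arrays). Cyp2e1, a cytochrome of ethanol and ketone oxidation, had levels of 14.96, 15.57 and 15.94 on the standard diet and 11.76, 12.17 and 12.59 on the high-fat diet. Nothing lay between the 2 ranges, and it fell 10.1-fold, a difference of -3.33 ± 0.19 on all arrays (adjusted p = 1.6e-07) and of -3.05 ± 0.27 on the bright ones (adjusted p = 0.00151). Ces1f, a carboxylesterase, had levels of 10.33, 10.51 and 10.63 on the standard diet and 8.63, 9.11 and 9.41 on the high-fat diet. It fell by 1.46 ± 0.13, and by 1.23 ± 0.11 on the bright arrays (adjusted p = 0.00151). Cyp27a1, a sterol hydroxylase, fell by 0.55 ± 0.12 on all arrays, with overlap. Glutathione and antioxidant genes fell in 6 of 24 members and rose in 2. Gsta3, a glutathione transferase, had levels of 12.93, 13.18 and 13.60 on the standard diet and 11.55, 11.79 and 12.25 on the high-fat diet. The diets were apart, and Gsta3 fell by 1.42 ± 0.13 on all arrays (adjusted p = 1.99e-05) and by 1.49 ± 0.16 on the bright ones (adjusted p = 0.00731). Gstt1 fell by 1.13 ± 0.12, Gsta4, which clears lipid aldehydes, by 0.95 ± 0.13, the secreted peroxidase Gpx3 by 1.06 ± 0.15, and the membrane-bound Mgst3 by 0.88 ± 0.17. Hmox1, the inducible heme oxygenase, rose by 0.80 ± 0.12, and none of these 5 overlapped. With the brightness covariate 8 xenobiotic genes and 6 glutathione genes were lower, and with the dim-array term 2 of each. Under median scaling 2 xenobiotic and 3 glutathione genes passed, all lower, with list medians of -0.76 and -0.46.

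Of 9 brown-fat genes 2 rose and 2 fell. Ucp1, the uncoupling protein of brown and beige adipocytes, had levels of 8.87, 9.66 and 11.01 on the standard diet and 11.16, 12.06 and 13.37 on the high-fat diet. The diets were apart by a small margin within wide ranges, and the rise was 2.35 ± 0.42 on all arrays (adjusted p = 0.00236) and 1.43 ± 0.49 on the bright ones (adjusted p = 0.26). Otop1, a proton channel of brown fat, rose by 0.83 ± 0.24, whereas Cidea and Cox8b, a cytochrome oxidase subunit of heat-producing and muscle tissue, fell, Cox8b by 1.07 ± 0.25. Of 14 genes of serotonin and neuronal type 3 rose and 2 fell, with a median of -0.15. Beside the rise of Tph2 the list held falls of Maob, the monoamine oxidase that breaks amines down (-0.67 ± 0.09), and of Slc6a4, the serotonin transporter (-0.55 ± 0.12), and a rise of the serotonin receptor Htr2b (0.55 ± 0.16), whose standard-diet levels of 6.98 to 7.56 were near the median probe.

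Cell cycle genes rose in 5 of 18 members. Mcm2 and Mcm5, of the replicative helicase, rose by 0.58 ± 0.08 and 0.70 ± 0.11, the mitotic kinase Aurkb by 0.66 ± 0.12 and the survival factor Birc5 by 0.72 ± 0.18. Cdkn2c, an inhibitor of cyclin-dependent kinases, fell by 0.65 ± 0.10, and a further probe for it had the other sign. Of 19 genes of the endoplasmic reticulum stress and amino acid response 6 rose and 1 fell. Atf3, a stress-induced transcription factor, had levels of 7.86, 8.13 and 8.59 on the standard diet and 9.22, 9.62 and 9.93 on the high-fat diet. The diets were apart, and it rose by 1.39 ± 0.15 (adjusted p = 7.88e-05). Asns, asparagine synthetase, had levels of 11.83, 11.91 and 11.97 on the standard diet and 10.85, 11.10 and 11.27 on the high-fat diet, with no overlap. It fell by 0.82 ± 0.08 on all arrays (adjusted p = 3.42e-05) and by 0.90 ± 0.10 on the bright ones (adjusted p = 0.00919). The immediate early genes Fos and Egr2 rose by 1.02 ± 0.14 and 1.11 ± 0.16. The clock genes Arntl and Npas2 fell by 0.68 ± 0.14 and 0.46 ± 0.13, as the 2 called of 13, where 6.04% of all features were lower. The high-fat mean of Npas2, 6.96, lay below the filter of 7.05. Npas2 was thus tested only through its standard-diet values, and its fall gives no support to the count.

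Further large falls concerned genes outside these lists. Cldn22, a tight-junction claudin, fell by 1.62 ± 0.13 on all arrays and by 1.41 ± 0.15 on the bright ones (adjusted p = 0.00565). Fam13a, a gene linked to fat distribution in humans, had levels of 8.03, 9.03 and 9.67 on the standard diet and 7.43, 7.48 and 7.53 on the high-fat diet. The high-fat arrays lay close together and the fall was 1.47 ± 0.20. Eri2, an exonuclease family member, and Accsl, an aminotransferase-like protein, fell by 1.53 ± 0.18 and 1.46 ± 0.17. The diets did not overlap on these 4 genes. The high-fat mean of Accsl, 7.01, lay below the filter of 7.05, so Accsl was tested only through its standard-diet values. Its difference is measured against high-fat values not told from background.

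Skeletal muscle markers set 1 standard-diet array apart. Atp2a1, the calcium pump of fast muscle, had levels of 9.73, 10.45 and 14.13 on the standard diet and 6.70, 6.96 and 7.41 on the high-fat diet, and the 14.13 belonged to standard-diet replicate 1. Tnnt3 and Ckm, fast troponin T and muscle creatine kinase, reached 12.74 and 11.63 on that array against at most 9.09 and 8.33 on the other standard-diet arrays. On all arrays Atp2a1, Tnnt3 and Ckm differed by -3.86 ± 0.56, -2.26 ± 0.58 and -1.81 ± 0.53, as 3 called of 9 muscle markers (median -1.46). Without standard-diet replicate 1 the differences were -3.21, -1.57 and -1.18 (adjusted p = 5.73e-07, 0.000136 and 0.000317), and 5 of 9 markers passed. The high-fat means of Atp2a1 and Ckm, 7.02 and 6.69, lay below the filter of 7.05. Both were thus tested only through their standard-diet values, and their falls give no support to these counts. All 6 high-fat arrays had Atp2a1 between 6.70 and 7.41, near the median probe, and the other 5 standard-diet arrays had it between 9.73 and 10.68. Acta1, skeletal alpha-actin, was at 14.93 on standard-diet replicate 1, at 12.00 to 12.99 on the other standard-diet arrays and at 11.87 to 12.54 on the high-fat diet, and did not pass. Without that replicate 1935 features passed (10.7%), and 140 of the 146 named genes that passed on all arrays passed again. The part of muscle RNA in the other differences was not tested.

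**Figure D4:**
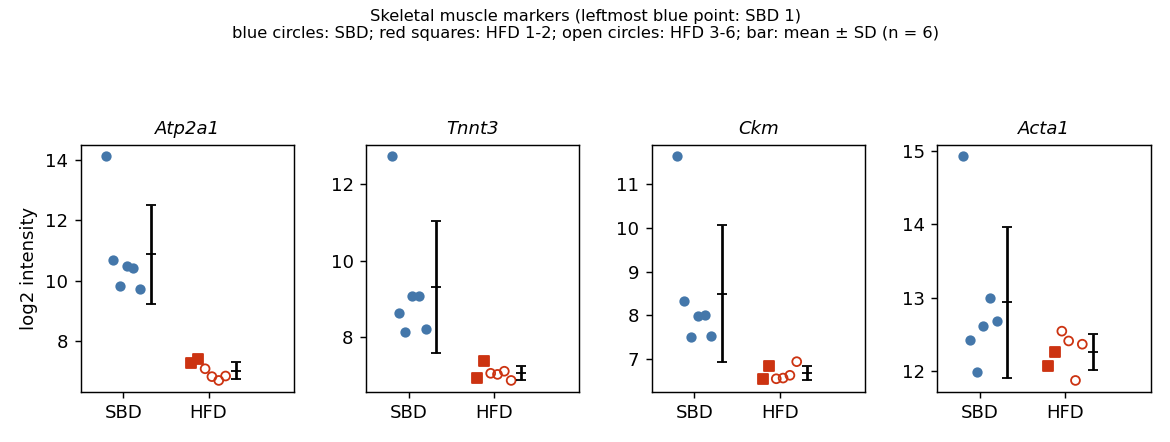
Log2 intensity of 4 skeletal muscle markers on each gonadal fat array, with the mean ± SD of each diet (n = 6). The leftmost blue circle of each panel is standard-diet replicate 1, at 14.13 for Atp2a1. The other standard-diet arrays lie above the high-fat arrays on Atp2a1, Tnnt3 and Ckm and overlap them on Acta1.

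The gonadal response was set against that of the mesenteric, perirenal, inguinal and subcutaneous fat of the same series in 1 limma fit over 60 arrays. The difference between the gonadal diet effect and the mean of the other 4 passed for 2 of 18065 features (0.0111%), Retn and Rasgrf1, while 1121 had an unadjusted p under 0.05. Retn had levels of 9.42, 9.86 and 10.11 on the standard diet and 8.46, 8.68 and 8.92 on the high-fat diet in gonadal fat when the 60 arrays were normalised together. The diet effect was -1.14 in gonadal, -0.63 in perirenal, -0.27 in mesenteric, -0.12 in inguinal and 0.10 in subcutaneous fat. In mesenteric fat the mean of Retn was 7.61 on the standard diet and 7.34 on the high-fat diet, nearer to the median probe. Whether the mesenteric response was smaller or only limited by this low level cannot be told apart. The gonadal effect was lower than the mean of the others by 0.91 ± 0.14 (adjusted p = 0.000718). Against mesenteric and perirenal fat alone that value was -0.69 (adjusted p = 0.124), and without high-fat replicates 3 to 6 in every depot it was -0.83 (adjusted p = 1.00). Rasgrf1, a guanine nucleotide exchange factor for Ras and an imprinted gene, had levels of 8.50, 8.63 and 8.87 on the standard diet and 7.56, 8.04 and 8.31 on the high-fat diet in gonadal fat. In the other 4 depots its mean on the standard diet was 7.56 to 7.69, nearer to the median probe, and its diet effects lay between -0.03 and 0.12. Whether the depots differ in response or only in level cannot be told apart for Rasgrf1. The difference was -0.67 ± 0.13 (adjusted p = 0.0289), and -0.49 without high-fat replicates 3 to 6 (adjusted p = 1.00). Orm2 and Mrc2 were among the higher genes of smallest p with a value of 1.18 ± 0.26 and 0.77 ± 0.17 that did not pass (adjusted p = 0.0859 and 0.106). Mrc2 had positive diet effects of 0.55 to 1.62 in the other depots. The labels do not tie arrays to animals. With same-numbered arrays of a diet blocked across depots, as if they came from 1 animal, 71 features passed, with adjusted p of 0.00119 for Orm2 and 0.0059 for Mrc2. Without high-fat replicates 3 to 6 the values of Orm2 and Mrc2 were 0.89 and 0.69 (adjusted p = 1.00).

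**Figure D5:**
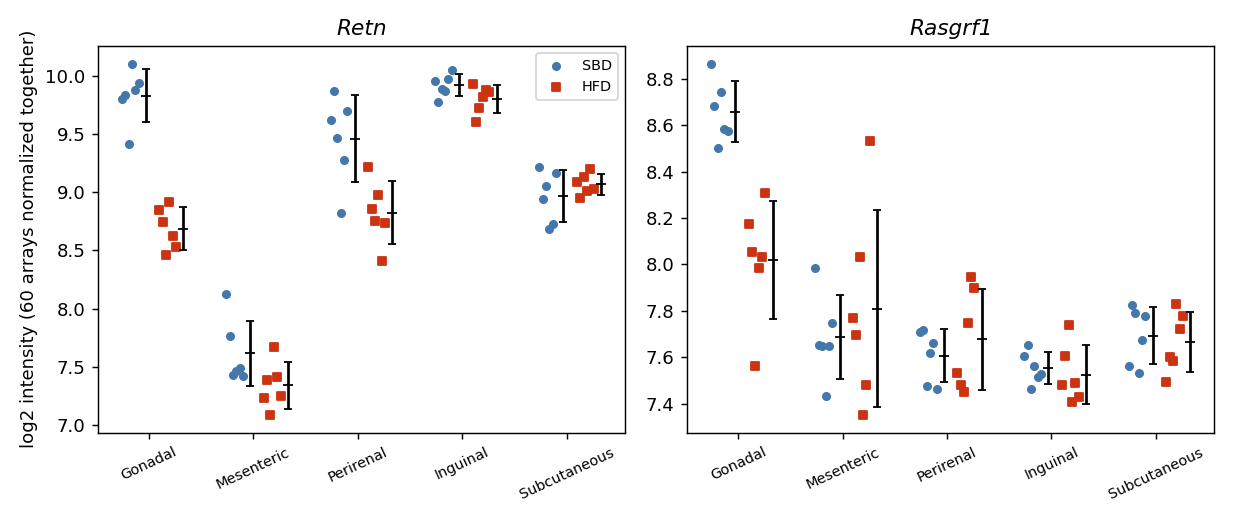
Log2 intensity of Retn and Rasgrf1 on each array of 5 white fat depots on the standard diet (blue circles) and the high-fat diet (red squares), with the mean ± SD of each group (n = 6), after the 60 arrays were normalised together. The diets are apart in gonadal fat for both genes; the gonadal diet effects are -1.14 and -0.64.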

How the data were processed

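The authors deposited 1 table of non-normalised bead intensities for all 96 arrays and, in the series matrix, log2 values of the same arrays. Per the labels the arrays are Illumina Mouse-6 BeadChips, and which scanner software was used is not stated. As deposited, the log2 values equalled a quantile normalisation of the intensities over all 96 arrays, to within 0.00191, and served as an alternative. The intensities of the 12 gonadal fat arrays were background-corrected by normexp with an offset of 50, put on a log2 scale and quantile-normalised with limma 3.58.1 in R 4.3.3. Of 46632 probes 29976 had 1 gene symbol, 10 several and 16646 none; 29921 matched the RefSeq table by Entrez number. The brightest probe of each gene, and each probe without a symbol, was tested where its mean exceeded the median over all probes, which left 18015 features. Diets were compared with lmFit and eBayes and Benjamini-Hochberg adjustment over all features, at an adjusted p of 0.05, with no replicate block. P-values measure the spread between the arrays of a diet. The number of arrays limits the precision, and no detection p-values were used. Fold changes of dim genes are understated by the offset.

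Same-numbered arrays of the 2 diets deviated together with correlations of -0.035 to 0.35, so the numbers were not taken as pairs. Genes named in the text are the 15 largest rises and 15 largest falls, up to 6 called members of smallest p of each gene list with at least 3 called, a few fixed genes and members of a list that define it, and the 10 genes of smallest p in each direction over the bright arrays and between depots; not all of these are printed. Lgals3, Nkg7, Ccr7, Cfb, C2, Mlxipl, Elovl1, Acss2, Pcx, Dlat, Hsd11b1, Arntl, Npas2, S100a9 and Hpx were named after their values were seen. So were Itih4, Cyp2f2, Cyp7b1, Arg1, Greb1, Krt8 and Lcn2, which were not among the 154 genes examined for arrays that stand apart. The arrays and the gene lists were chosen with earlier results of these data known. Alternatives included other normalisations and filters, array weights, the brightness ratio or a dim-array term in the fit, and leaving out each array. The fits over the bright arrays were examined under further settings chosen after seeing the data.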

Additional observations from a re-analysis of the deposited data

Results flagged for a closer look

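Among the 154 genes examined in each diet, or 308 groups of 6 arrays, 21 held 1 array far from the other 5 by Dixon's criterion, and chance gives about 1 in 20 groups. Standard-diet replicate 1 stood apart on the muscle genes Atp2a1 (14.13, next array 10.68), Tnnt3 (12.74, next 9.09) and Ckm (11.63, next 8.33). Standard-diet replicate 4 was low on the integrin chain Itgb2 (7.19) and high on the acyltransferase Gpat4 (13.76) and the fatty acid transporter Slc27a1 (12.52). Standard-diet replicate 3 was low on the elongase Elovl1 (10.72) and on Cox8b (12.83), replicate 2 on the proton channel Otop1 (7.87), replicate 5 on the insulin receptor substrate Irs1 (11.32), with a high value on Hpx (11.16, next 7.84), and replicate 6 on Unc79 (7.82).

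High-fat replicate 1 was low on Lep (15.26) and on the chemokine Cxcl1 (10.39). High-fat replicate 3 was low on Gpihbp1 (12.93), on the complex I subunit Ndufb8 (13.80) and on the glutathione enzyme Mgst3 (13.14). High-fat replicate 4 was high on Nkg7 (9.15) and on Gsta3 (12.25), and high-fat replicate 5 was low on Bpifb6 (7.67) and high on the isomerase Eci1 (12.82).

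The diet effect of gonadal fat differed from the mean of the other white depots by -0.91 for Retn and by -0.67 for Rasgrf1, as a term of the limma fit over 60 arrays.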

How the results depend on the processing

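Against 2189 features called over all arrays, 94 passed with median scaling, 3358 with array weights, 158 with the dim-array term, 61 over the bright arrays alone, 59 when these were also normalised alone, and 675 at a fold of at least 1.5. With 1 array left out the count ran from 1351 (no high-fat replicate 3) to 3035 (without high-fat replicate 2), with 1454 without high-fat replicate 6. The other settings, 1482 to 2635 features, stayed within 1.5 times. Of the 146 named genes called, 134 kept their call with the brightness covariate, 51 with the dim-array term, 30 over the bright arrays and 37 with median scaling, under which 105 lost it; the bright arrays give a test on 2 high-fat arrays. Over the bright arrays the 61 became 1077 (1028 higher, median of all features 0.192) with median scaling and 158 with the spread of all 12 arrays, and ran from 6 (without high-fat replicate 2) to 112 (without standard-diet replicate 5), with 10 without high-fat replicate 1 and 26, 39 and 27 without standard-diet replicates 2, 4 and 6. Blocking on the replicate number, 2532 features passed over all arrays and all 146 named genes kept their call; 6 passed over replicates 1 and 2 of both diets. Between depots the 2 calls became 6 on the deposited log2 values and with each depot normalised alone, 71 with a replicate block across depots and 0 without high-fat replicates 3 to 6 in every depot, where 318 had an unadjusted p under 0.05 by limma. Retn lost its call there, with median scaling (adjusted p = 0.614) and against mesenteric and perirenal fat alone. The causes were not tested.

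Signs turned with median scaling for Itgb1 (-0.00428), Mrc1 (-0.00800), Elovl1 (-0.0515) and Vldlr (-0.0101), which rose otherwise, and for Pdk4 (-0.327), while the median of all features was -0.263. Among genes not called, Adipoq ran from -0.00293 (without standard-diet replicate 4) to 0.151 with arrays left out. Fasn was at 0.00715 on the deposited values, 0.00694 with 96 arrays normalised together, 0.0674 with array weights, and ran from -0.0821 to 0.128 with arrays left out, positive without standard-diet replicates 3 (0.0135) or 6 (0.0456) or high-fat replicates 1 (0.0441) or 2 (0.128). Scd1 was at -0.0368 with the dim-array term and over the bright arrays and at -0.0248 with these normalised alone, Pdk4 at -0.140 and -0.134, and Sfrp5 at 0.274 and 0.270; with arrays left out Pdk4 ran from -0.0105 (high-fat replicate 6) to 0.216. Of 46 named genes with another tested probe, 22 had it called the same way and 1, Hadha, the opposite way. No other probe was called for the rest, of which 19 had the same sign throughout and 4 had another sign on some probe. Signals near the median probe cannot be told from background here.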

Other observations

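Markers of other cells and regions of the fat pad also held calls by limma. Fibroblast and progenitor markers rose in 3 of 11 members, and endothelial markers rose in 2 of 12 and fell in 1, against 6.11% of all features higher. Of 18 genes that mark a depot's position 4 fell, and of 8 mesothelial markers 2 fell (median -0.39), against 6.04% of all features lower.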
